A study of Mus musculus with 18 samples.

Results

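Loop-rich small domains are short stretches of chromosome in mouse erythroblasts that hold many chromatin loops. A chromatin loop joins 2 positions, called anchors, that touch more often than their surroundings, and a domain is a stretch whose positions touch each other more than they touch their neighbourhood. Members were autosomal domains of 500 kb or less that contained no other domain of the list and held both anchor midpoints of 8 or more loops. This rule gave 325 members out of 6705 equally small innermost autosomal domains (4.85%) and 13483 domains in all. Members were thus selected on measured loop number, size and nesting, and these properties are given as descriptions only.

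The series used Micro-C, a contact assay that cuts chromatin between nucleosomes and joins DNA ends that lie near each other. All 18 samples came from G1E-ER4 cells, an established mouse erythroblast line derived from cells without GATA1, into which GATA1 was returned as a fusion to a hormone receptor domain. Every sample was of an LDB1-AID subline, in which LDB1 carries an auxin-inducible degron, and whether that subline is 1 clone is not stated in the sources used here. The labels give 9 untreated samples and 9 treated with auxin for 4 h, and both groups share the cell line and the degron allele. The 20926 loops and the domains were each supplied as 1 list for the series. The samples behind each list are not stated, no value per sample was analysed here and the depth is unknown. An effect of auxin on the members could therefore not be measured, and no comparison below has biological replicates. Spreads are SDs over the 19 autosomes, and Wilson intervals cover only the counting of loops, regions or domains.

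LDB1 has no DNA-binding domain. It is recruited by LIM-only proteins that sit with TAL1 and GATA1 on erythroid regulatory DNA, and it can bind to itself, by which distant enhancers and promoters are brought together. Other loops form where cohesin extrudes chromatin until it meets CTCF, and such loops often end at domain borders. The lists do not record which factor lies at an anchor, so the members are described by the geometry of their loops. Coordinates are those of the files, in mouse build mm9 per the submitters' processing notes, counted from 1. Genes of that build, the erythroid loci among the members included, were not placed here, and no anchor sequence is printed.

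Most small innermost domains held no loop or few loops, and loop-rich ones were the tail of a declining count. There were 3504 domains with 0 loops, 1928 with 1 to 3, 948 with 4 to 7 and 325 with 8 or more. Among the members, 106 held 8 loops, 67 held 9, 51 held 10 and 101 held more. The median was 9 loops, and the highest number was 27. No gap separated the members from the rest. The 122 domains with 7 loops, just outside the limit, had a median size of 320 kb, a median of 2.19 loops per 100 kb and a median loop span of 110 kb. The 106 domains with 8 loops, just inside it, had 351 kb, 2.28 loops per 100 kb and 105 kb. On chromosome 1, the domain at 88255001-88500000 was an example with 7 loops, and that at 132951667-133175000 an example with 8.

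**Figure D1:**
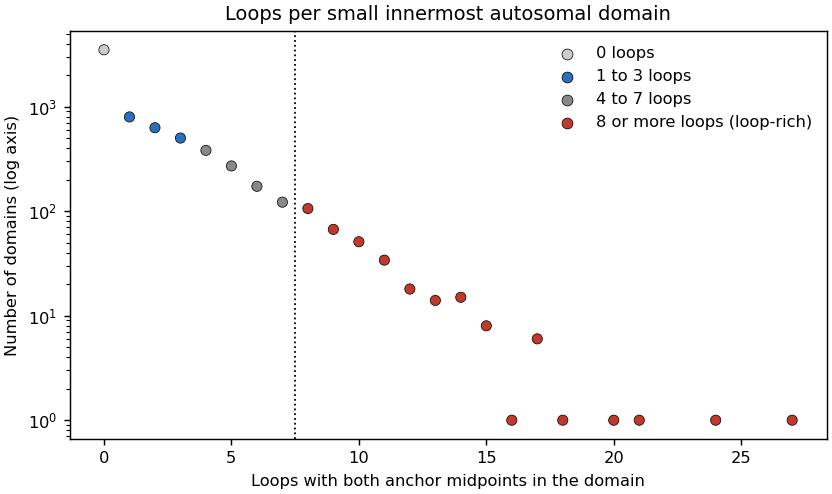
Number of small innermost autosomal domains (log axis) by the number of loops they hold. The dotted line marks the limit of 8 loops; counts fall from 122 domains with 7 loops to 106 with 8, with no gap at the limit, and single domains hold 20, 21, 24 and 27.

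Loop-rich small domains took up little of the genome and a larger share of its loops. They covered 114 Mb, which is 4.74% of the autosomal span of the lists. They held 3203 distinct loops, which is 15.6% of the 20535 autosomal loops. The sum over members was 3291, because 35 members overlapped another member and some loops counted for both. Loop density had a median of 2.79 loops per 100 kb in members and ranged from 1.60 to 7.87. Domains with 1 to 3 loops had a median of 0.690 loops per 100 kb. Members were chosen for many loops in a limited length, so the share of loops and the density go with the rule.

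The members were spread over all 19 autosomes, unevenly. Chromosome 7 had 37 members and chromosome 11 had 32, whereas chromosome 16 had 4. Set against the small innermost domains of each chromosome, the share was 9.69% on chromosome 17, 9.18% on chromosome 7, 8.79% on chromosome 11 and 8.47% on chromosome 19. No other autosome was above 5.47%, the value of chromosome 4. The lowest shares were 1.53% on chromosome 16, 2.11% on chromosome 6 and 2.36% on chromosome 13. On chromosome 17, members held 28.1% of the loops of the chromosome, compared with 6.91% on chromosome 16. Each chromosome gave 1 value, so these differences have no test.

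**Figure D2:**
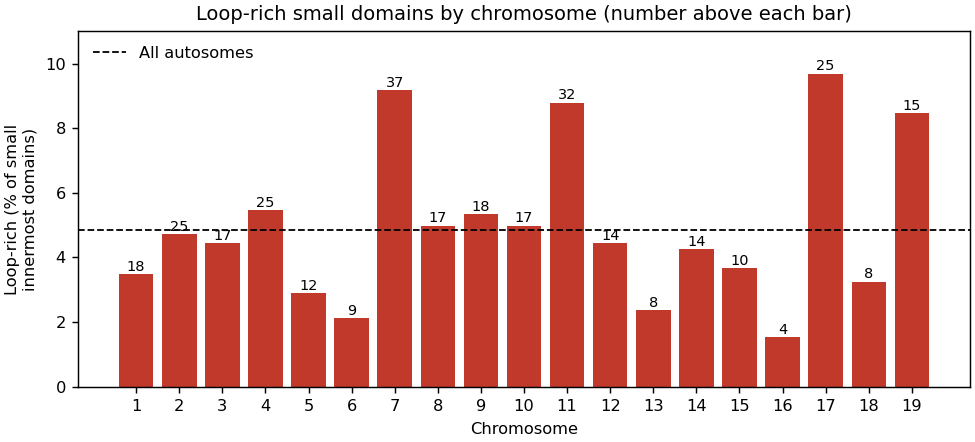
Share of small innermost domains that were loop-rich, in percent, for each autosome, with the number of members above each bar; the dashed line is the share over all autosomes, 4.85%. Chromosomes 7, 11, 17 and 19 stand above 8%, and chromosome 16 is lowest with 4 members.

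Some loop-rich domains lay in runs. Of the members, 174 (53.5%) had another member within 1 Mb, the 35 that overlapped another member included, and the median gap to the nearest member was 818 kb. Runs of members separated by at most 50 kb numbered 25 with 2 members, 6 with 3, 1 with 4 and 2 with 5, and together held 82 members. Overlapping members were joined into runs as well, so the members of a run are not always separate stretches. The run of 5 on chromosome 7 lay at 28501667-30091666 and held 59 distinct loops inside its members. The other run of 5 lay on chromosome 8 at 72385001-74245000 and held 44. A run of 4 lay on chromosome 17 at 56075001-57487500 and held 43. Small innermost domains next to a member, at most 50 kb away, were themselves loop-rich in 61 of 422 cases (14.5%, 95% Wilson interval 11.4 to 18.1%). Beside domains with 1 to 3 loops this was 153 of 2506 cases (6.11%, 5.23 to 7.11%), and beside domains without a loop 71 of 4259 (1.67%, 1.32 to 2.10%). The share over all small innermost domains was 4.85%. A pair of loop-rich neighbours enters from both sides, so the cases are not independent.

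Members were larger than domains with few loops, although both were held to the same limit. Members had a median size of 363 kb (350 to 370 kb, 95% confidence limits) and quartiles of 305 and 420 kb, compared with 257 kb (253 to 260 kb) for domains with 1 to 3 loops. Median sizes on single autosomes averaged 365 kb ± 27.6 in members (SD, n = 19) and 257 kb ± 9.77 in the others, and members were larger on 19 of 19. The difference on single autosomes was 108 kb ± 27.3 (SD, n = 19), from 62.5 to 170 kb. Domains with 4 to 7 loops lay between them at 287 kb. Domains without a loop had a median of 270 kb, so size did not fall steadily from loop-rich to loop-free domains. Averaged over size steps of 100 kb, each with equal weight, the difference was 12.5 kb. Size and loop number were both in the rule, so nothing further is read from this difference. The smallest member, on chromosome 6 at 124585001-124755000, had 170 kb and 8 loops. The largest, on chromosome 8 at 73420001-73920000, had 500 kb, also with 8 loops, and 24 further loops crossed its edges.

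Over all sizes, loop spans in members and in domains with 1 to 3 loops differed by less than the spread between autosomes. Loops of members had a median span of 110 kb (105 to 112 kb, 95% confidence limits) and those of domains with 1 to 3 loops 115 kb (110 to 120 kb). On single autosomes the difference was -3.58 kb ± 11.1 (SD, n = 19), lower in members on 13 and higher on 6, which is inside the spread between autosomes. As a share of domain size the median span was 30.9% in members and 48.5% in domains with 1 to 3 loops. Over all sizes, spans in members were also more spread at both ends. Loops under 50 kb made up 15.1% of loops in members and 10.2% in domains with 1 to 3 loops. Loops of 100 to 200 kb made up 34.8% and 45.0%, and loops of 200 kb or more made up 20.5% and 16.4%. These shares are not matched for size, and members were the larger domains.

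Loop span rose with domain size in members, and between domains of like size their median spans were the shorter ones. Among domains of over 200 to 300 kb it was 90 kb at the median (90 to 100 kb, 95% confidence limits) in 74 members and 120 kb (120 to 126 kb) in 924 domains with 1 to 3 loops. Among domains of over 300 to 400 kb it was 106 kb (100 to 112 kb) in 147 members and 150 kb (140 to 160 kb) in 399 domains. Among those of over 400 to 500 kb it was 130 kb (120 to 140 kb) in 101 members and 160 kb (150 to 180 kb) in 195 domains. Only 3 members were 200 kb or smaller. Averaged over the size steps, each with equal weight, spans in members were 33.5 kb shorter. The step with these 3 members counted as much as any other. Anchors lie on grids of 2, 5 or 10 kb, on which loops of members had median spans of 68, 125 and 160 kb. The 2 kb grid held 34.4% of the loops of members and 28.7% of the loops of domains with 1 to 3 loops. Without it 102 members remained in place of 325, and over all sizes their median span was 30 kb above that of domains with 1 to 3 loops.

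**Figure D3:**
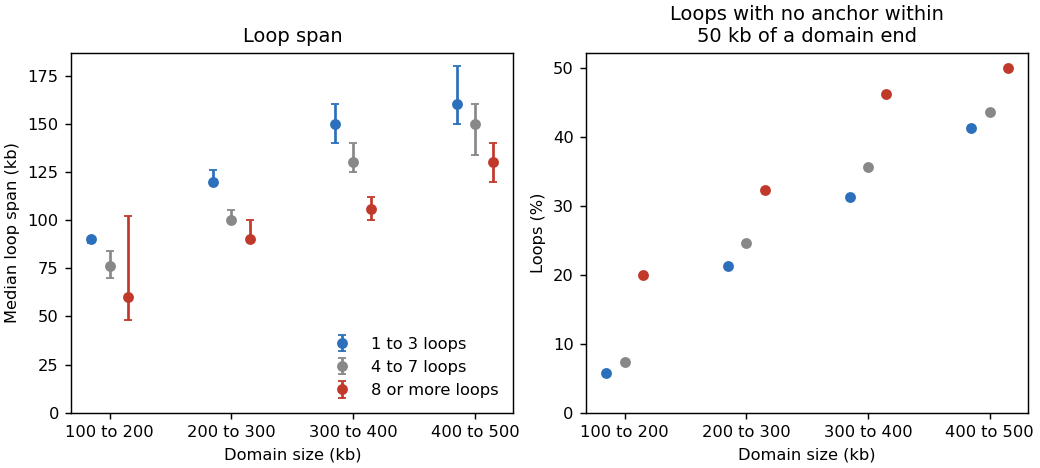
Left, median loop span in kb (bars, 95% confidence interval from order statistics) by domain size in steps of 100 kb for domains with 1 to 3, 4 to 7 and 8 or more loops; right, percent of loops with no anchor within 50 kb of a domain end. In each step from 200 kb upward the loop-rich domains have the shortest median span, 90, 106 and 130 kb, and the highest share of inner loops.

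Anchors of members were placed along the whole domain, with a larger share in its middle than in domains with 1 to 3 loops. In members 44.2% of loops had no anchor within 50 kb of either domain end, compared with 22.2% in domains with 1 to 3 loops. The share rose with domain size in both kinds, and at like size it was 32.3% against 21.3% among domains of over 200 to 300 kb, 46.2% against 31.3% at over 300 to 400 kb, and 49.9% against 41.2% at over 400 to 500 kb. Some loops ran from within 50 kb of the start to within 50 kb of the end. Over all sizes they made up 5.96% of loops in members and 23.3% in domains with 1 to 3 loops. At like size these shares lay closer together, at 10.3% against 21.4% among domains of over 200 to 300 kb. They were 5.53% against 13.3% at over 300 to 400 kb, and the share was also lower in members at over 400 to 500 kb. The middle 4 deciles of the domain held 39.5% of all anchors in members and 30.9% in domains with 1 to 3 loops. The outer deciles held 22.4% in members, 2.63 percentage points less over all (difference -2.63), and this difference was within its spread over autosomes, at -2.01 percentage points ± 3.71 (SD, n = 19). It was lower in members on 12 autosomes and higher on 7, and without the 2 kb grid it was 0.0088, of opposite sign. These values are not matched for size. At like size the outer deciles held 22.6% in members against 23.8% at over 200 to 300 kb. They held 21.4% against 27.7% at over 300 to 400 kb, and 23.7% against 30.1% at over 400 to 500 kb. Averaged over size steps of 100 kb, each with equal weight, the difference was -4.66 percentage points.

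Left anchors, those at the lower coordinate, were most frequent in decile 2 of the domain, counted in equal parts from its start, in both kinds of domain. That decile held 18.9% ± 4.62 of left anchors in members and 24.1% ± 3.31 in domains with 1 to 3 loops (SD over 19 autosomes). Right anchors were most frequent in decile 10, which held 27.0% ± 4.67 in members and 31.4% ± 4.40 in domains with 1 to 3 loops. Right anchors in decile 9 were the place where the 2 kinds differed most, with 14.9% ± 5.49 and 22.8% ± 4.55. Left anchors from decile 6 to decile 8 were more frequent in members, with 6.32% ± 2.31 in decile 8 compared with 2.33% ± 0.992. The left and right profiles were therefore not mirror images in either kind, since right anchors crowded closer to the domain end than left anchors to the start.

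**Figure D4:**
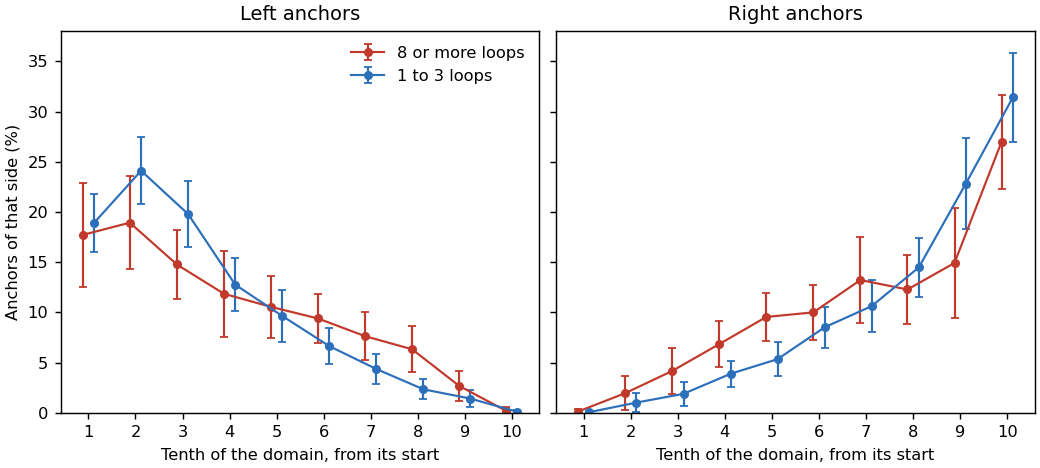
Percent of left anchors (left) and right anchors (right) in each decile of the domain, counted from the domain start, for members and for domains with 1 to 3 loops; bars are the SD over 19 autosomes. Members have lower peaks, 18.9% in decile 2 on the left and 27.0% in decile 10 on the right. Their shares are higher from decile 5 onward on the left and up to decile 7 on the right.

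A corner loop, which joins the start of a domain to its end with each anchor within 20 kb, was found in few members. There were 29 members with a corner loop (8.92%, 95% Wilson interval 6.28 to 12.5%), with 8.12% of all small innermost domains with a loop as the background. In domains with 1 to 3 loops the share was 6.79% (131 domains), and with 4 to 7 loops 10.5% (100 domains). At like size the shares in members and in domains with 1 to 3 loops were 17.6 and 6.17% at over 200 to 300 kb, 6.12 and 4.76% at over 300 to 400 kb, and 5.94 and 3.08% at over 400 to 500 kb. A domain with more loops has more that can be a corner loop. Counted per loop, corner loops were 0.942% of the loops in members and 3.82% in domains with 1 to 3 loops. At like size these shares were 2.14 and 3.31% at over 200 to 300 kb, 0.607 and 2.66% at over 300 to 400 kb, and 0.555 and 1.92% at over 400 to 500 kb.

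Inside the members, loops were tied together through shared anchors. Of the loops, 3180 of 3291 (96.6%, 95% Wilson interval 96.0 to 97.2%) overlapped an anchor of another loop of the same domain, and in 237 members all loops did. On single autosomes this share lay between 92.1 and 98.7%. Overlapping anchors were merged into anchor regions, of which members had a median of 8 (quartiles 7 and 10, range 4 to 19), with a median of 2.29 loops per region. Regions linked by loops formed 1 network in 208 members (64.0%), 2 networks in 84, and 3 or more in 33. The largest network of a member held 92.4% of its loops. With more loops in a domain of limited size some overlap must follow, so these shares go with the rule. The share of loop pairs in a domain that meet at 1 anchor was 38.7% ± 3.37 of 16146 pairs in members and 60.8% of 2132 pairs in domains with 2 or 3 loops. At like size it was 38.4 and 57.7% among domains of over 300 to 400 kb. This share also goes with the rule, since it fell with loop number, from 62.6% of pairs in domains with 2 loops to 44.1% with 8 and 30.9% with 15 or more.

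Sharing depended on the tolerance. With identical anchor coordinates 61.1% of loops shared an anchor, and with anchors up to 10 kb apart 99.2% did. Loops that overlapped at both anchors, which may be the same contact listed at more than 1 resolution, made up 1.56% of loop pairs in members. Counting each such contact once left 277 domains with 8 or more loops.

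Counted over loops inside the member, most anchor regions of members looped in 1 direction only. Loops that left the domain were not part of these directions. In members 523 of 2824 regions (18.5%) had loops to both higher and lower coordinates, compared with 10.2% in domains with 4 to 7 loops and 1.89% in domains with 1 to 3 loops. A region needs at least 2 loops for this, so its share rises with loop number. Still, 45 members (13.8%) had no such region, and in these every anchor region looped one way inside the domain. The region with the most loops held a median of 5 loops (range 2 to 11), and in 182 members it held 5 or more. These counts rest on the merging of overlapping anchors. These busiest regions took part in 47.6% of the loops of members. In 228 members a single region was busiest. It looped both ways in 92 of them, to lower coordinates only in 71 and to higher coordinates only in 65. Of 3 equal parts of the domain it lay in the last in 95, in the first in 75 and in the middle in 58. In 104 of the 228 the busiest region also had a loop that left the domain.

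Many members held 3 anchor regions each joined to the other 2, here called a triple. This was so in 240 of 325 members (73.8%, 95% Wilson interval 68.8 to 78.3%), with a background of 18.5% over all small innermost domains with a loop. The share was 33.2% with 4 to 7 loops and 1.92% with 1 to 3. At least 3 loops are needed, so the share goes with the loop number that chose the members, and nothing is read from the background. On single autosomes the share ran from 44.4% on chromosome 6, with 9 members, to 100% on chromosome 18, with 8. There were 591 such triples, with a median of 1 per member and a highest number of 12, and 31 members had 5 or more. At most 3 regions were joined pairwise in 201 members, 4 in 37 and 5 in 2. The count rested on the merging of anchors. With identical coordinates 11.4% of members had a triple, with anchors up to 10 kb apart 86.8%, and without the 2 kb grid 60.8%.

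Where a region looped to 2 partners, the share of cases in which those partners were themselves joined was higher when the region lay between them. When a region looped to 1 partner on each side, these partners were joined in 591 of 1247 cases (47.4% ± 8.52, SD over 19 autosomes). When both partners lay on the same side they were joined in 1182 of 4235 cases (27.9% ± 4.70). In domains with 4 to 7 loops the shares were 48.5 and 18.6%. Every triple gives 1 case of the first kind and 2 of the second. Partners on the same side can also lie too close to be listed as a loop, since the shortest loop spanned 18 kb.

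The 5 members with the most loops differed in shape. The richest lay on chromosome 12 at 115878334-116271666, with 27 loops in 393 kb. Its loops spanned 34 to 260 kb, with a median of 106 kb, and 22 of them had no anchor within 50 kb of a domain end. Its 14 anchor regions formed 12 triples, more than any other member, and 4 of its regions were joined pairwise. The region at 116032501-116072500, 44.3% along the domain, had 11 loops, 5 to higher and 6 to lower coordinates, and was the busiest inside any member. It was 40 kb wide, a chain of merged anchors that did not all overlap each other.

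The member of rank 2, on chromosome 17 at 36045001-36350000, had the highest density of all members, with 24 loops in 305 kb or 7.87 per 100 kb. It had 14 regions in 1 network and 6 triples. Its median span was 76.5 kb, and 13 of its loops lay on the 2 kb grid. Its busiest region, 6.97% along the domain, sent 7 inside loops to higher coordinates and none to lower, and 2 further loops at it left the domain. This domain overlapped another member, and 12 loops crossed its edges.

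The member of rank 3 lay on chromosome 11 at 98545001-99025000, with 21 loops in 480 kb, and overlapped another member. Its busiest region was near the middle, at 48.2% of the domain, and had 4 loops to each side. Regions at 91.7 and 97.4% of the domain received 5 and 3 loops, all from lower coordinates. All 21 loops belonged to 1 network, with 7 triples.

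The member of rank 4, on chromosome 15 at 76345001-76778333, had 20 loops in 433 kb and no triple. Counted over its inside loops, each of its 14 anchor regions looped in 1 direction only. The region 7.79% along the domain sent 6 loops upward, and the region at 34.2% sent 5. At the region 7.79% along, 2 further loops left the domain. Regions at 82.6 and 94.9% received 4 loops each. All loops were still in 1 network, so rich sharing did not require triples. Its loops were long, with a median span of 150 kb and a longest of 375 kb, and 2 of the 20 lay on the 2 kb grid.

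The member of rank 5, on chromosome 11 at 95511667-95931666, had 18 loops in 420 kb, 13 regions in 1 network and 5 triples. Its busiest region, 8.65% along the domain, sent 6 loops upward to 6 partners. A region at 42.0% had 3 loops to higher and 2 to lower coordinates.

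The 2 members with 5 regions joined pairwise were singled out after their values were seen. One lay on chromosome 17 at 84255001-84600000 and had 13 loops between 7 regions, with 10 triples. No pair of its loops overlapped at both anchors, so its 13 loops joined 13 different pairs of regions. Each region at 14.5, 34.1, 50.2, 75 and 96.6% of the domain had 4 or 5 loops. The other lay on chromosome 1 at 180198334-180418333, was 220 kb long, and had 11 loops, 7 regions and 10 triples. Its 5 joined regions had 4 loops each and lay between 22.1 and 81.2% of the domain, and 1 loop outside them joined the outermost regions. At the other extreme, a member on chromosome 1 with 13 loops had 19 regions in 7 networks, and 4 of its loops shared no anchor.

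**Figure D5:**
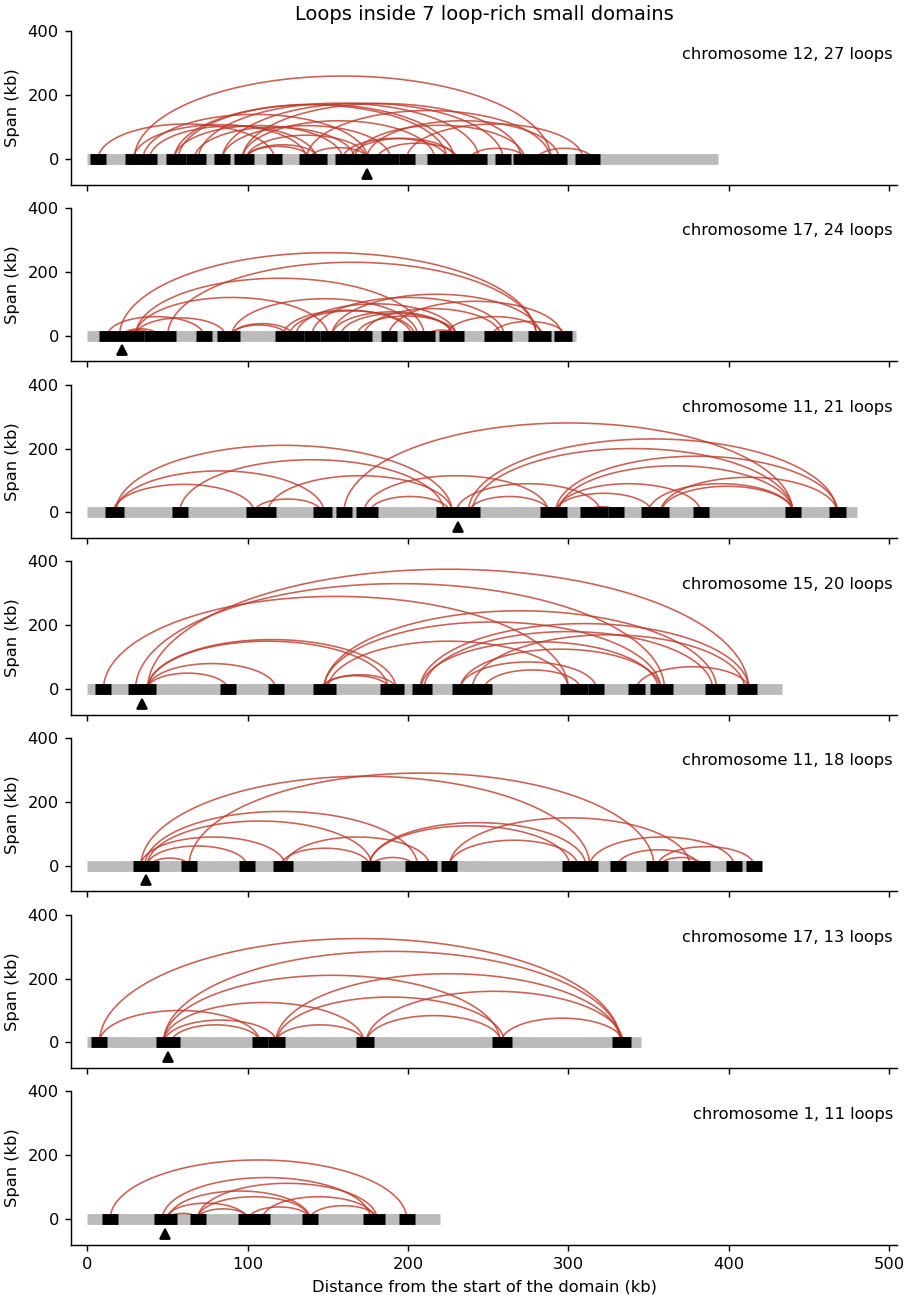
Loops (red arcs, height equal to span in kb) inside the 5 members with the most loops and the 2 members with 5 regions joined pairwise, drawn by distance from the domain start in kb; grey bars are domains, black blocks anchor regions, and triangles mark the region with the most loops (the first where several tie). The chromosome 12 domain has arcs in both directions around a central region, and in the chromosome 15 domain each region has arcs to one side only.

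Members kept more of their loops inside than domains with few loops. Of the loops with an anchor in a member, 66.6% ± 4.74 had both anchors in it (SD, n = 19), from 56.0 to 76.0% on single autosomes. The share was 50.6% in domains with 4 to 7 loops and 32.4% in domains with 1 to 3, and inside loops were what the rule counted. The loops that crossed an edge were not used by the rule. Members had a median of 4 of them, as did domains with 4 to 7 loops, and domains with 1 to 3 loops had 3. The number per member ran from 0, in 24 members, to 24, and in 28 members crossing loops outnumbered inside loops. Crossing loops of members had a median span of 330 kb, with quartiles of 195 and 535 kb. They left to higher coordinates in 49.3% of cases (95% Wilson interval 46.9 to 51.7%). In 232 of 1651 cases (14.1%) the other anchor lay in another member. The cases were summed over members, so a loop that linked members entered once from each. No share for other domains was set beside this value, and nothing is read from it.

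Fewer than 50% of the loop-rich domains lay inside no other domain of the list. There were 137 members (42.2%, 95% Wilson interval 36.9 to 47.6%) inside no other domain, against 23.1% of all small innermost domains. Lying inside no other domain does not mean lying apart, since members can overlap. The shares were 31.0% with 4 to 7 loops, 27.7% with 1 to 3 and 16.6% without a loop. The other 188 members had an enclosing domain, the smallest of which had a median size of 770 kb and a median of 18 loops. Members took a median of 47.2% of its length and 54.5% of its loops, and 140 of the 188 held more than their share by length. In domains with 1 to 3 loops the medians were 36.6% of the length and 25% of the loops. Both kinds of domain were chosen by their loop number under a size limit. These shares of enclosing domains therefore go with the rule, and nothing is read from them. Ends of members fell off the 5 kb grid in 29.5% of cases (26.2 to 33.2%). The share was 29.7% with 4 to 7 loops, 21.8% with 1 to 3 and 5.89% without a loop.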

How the data were processed

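Loops and domains of 18 Micro-C samples were analysed as 2 lists deposited by the authors, whose values are genome coordinates in bp (unit other), with no header, score or value per sample. The build is mm9 per the submitters' processing notes, and the supplied GRCm38 gene table was not used, since on 8 of 20 chromosomes the lists reach beyond its final gene. Aligner, callers and thresholds are not given in the sources used here, and the deposited file name calls the domains filtered and merged. There were 0 columns of unassigned samples.

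Calculations used Python 3.11.15, numpy 2.4.6, pandas 2.3.3, scipy 1.17.1 and matplotlib 3.10.9. Loop span is the distance between anchor midpoints. Anchors that overlap by at least 1 bp were merged within each domain. Confidence limits of medians (95%) come from order statistics. Nesting, loop and crossing-loop counts, anchor pairs, regions and triples were tested on simulated lists and recovered in all 200 domains. Simulated anchors were either identical or well apart, so the merging of partly overlapping anchors into regions was not checked. Other measures were not part of that check. Named regions were the 5 members with the most loops (ties by density), the smallest, the largest, the busiest anchor region and examples on either side of the limit. Members, comparison domains and lists were chosen with earlier results of these data known. No test was run, because the lists have no replicates and the members were chosen on their loops. Alternatives are given in the closing section.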

Additional observations from a re-analysis of the deposited data

How the results depend on the processing

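The 6 results compared below are the number of members, their median size and loop span minus those of domains with 1 to 3 loops, the share of loops sharing an anchor, the share of anchors in the outer deciles minus that of domains with 1 to 3 loops, and the share of members with a triple. They were 325 domains, 106 kb, -5 kb, 96.6%, -2.63 percentage points and 73.8%. A shift was called a move when it passed 1.5 times for the number, the SD over autosomes for differences and the Wilson interval for shares. A limit of 10 loops gave 152 members, 97.7% sharing and 84.9% with a triple. A size limit of 400 kb gave a size difference of 77.1 kb and 97.2% sharing. Leaving out the 2 kb grid gave 102 members, a span difference of 30 kb, an outer-decile difference of 0.0088 percentage points, both of opposite sign, and 60.8% with a triple. Identical anchors gave 61.1% sharing and 11.4% with a triple, and anchors within 10 kb gave 99.2 and 86.8%. Anchors within 20 kb of an end differed by -8.33 percentage points. Size steps of 100 kb, averaged with equal weight, gave a size difference of 12.5 kb and a span difference of -33.5 kb. Domains with 4 to 7 loops as the comparison gave a size difference of 75.8 kb. The size steps and limits change these values by construction; for the other settings the cause was not tested. The alternatives with 7 loops, contacts counted once and whole anchors moved none of the 6 results by this measure. Leaving out each autosome in turn, which gave 288 to 321 members, moved none either. With whole anchors the span difference was 0 kb and the outer-decile difference -0.66 percentage points. With contacts counted once the span difference was -1 kb. These shifts were smaller than the SD over autosomes, so they were not called moves. A nesting tolerance of 20 kb left all 6 values unchanged, so it gave no separate check. Leaving out the 35 overlapping members moved none of the 6, and equal weight per domain did not move the outer-decile difference, the value it was run for. Both were chosen after the data were examined. No paired analysis was possible because neither list gives values for single samples, and the auxin alternative was not run for that reason. With the depth unknown, a contact below the callers' thresholds is missing from these counts.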

Other observations

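The X chromosome was not part of the rule. Of its 495 small innermost domains 1 (0.202%) held 8 or more loops, and it held 8.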
